A study of Mus musculus with 8 samples.

Results

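The immediate early transcription factors of the mouse prostate were followed in *Olfm4*-knockout and wild-type mice. The set holds 10 genes, *Fos*, *Fosb*, *Jun*, *Junb*, *Jund*, *Egr1*, *Egr2*, *Atf3*, *Nr4a1* and *Ier2*, and was chosen because *Atf3* and *Nr4a1* were lower in knockout prostate. All probe sets annotated to a member were taken, which gave 13 of the 45037 probe sets tested and 10 of the 18193 genes that the arrays represent by an unshared probe set. None of the 13 was also annotated to another symbol. Since the members were selected on the genotype difference in these same arrays, their genotype values are given as a description and without a p-value.

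Whole prostate was taken at 3 months of age from *Olfm4* (-/-) and *Olfm4* (+/+) mice. RNA of 4 knockout and 4 wild-type prostates was hybridized to Affymetrix Mouse Genome 430 2.0 arrays, 1 array per mouse as far as the labels show. Both genotypes were of a mixed background, 50% 129/SV and 50% Black Swiss of the National Institutes of Health, and knockout mice were kept by crossing heterozygotes, so the knockout was inherited and was not limited to prostate epithelium. The titles give 2 array days: knockout 3 and 4 with wild type 1 and 4 on day 1, and knockout 1 and 2 with wild type 2 and 3 on day 2.

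Immediate early genes are transcribed within minutes of a stimulus such as a growth factor, a stress or a mechanical signal, because the factors that switch them on are already present in the cell. Fos and Jun family proteins pair into the AP-1 dimer, Egr proteins are zinc finger factors, *Atf3* is a stress-induced factor that can pair with *Jun*, and *Nr4a1* is an orphan nuclear receptor. Most of these transcripts are short-lived. In mouse models, *Egr1* is known to promote and *Atf3* to restrain prostate tumor growth.

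The start-site regions of the members were compared because several members varied together over the arrays. RefSeq windows on GRCm38.p6, from 250 bases before to 50 bases after a transcription start, were held for 8 of the 10 genes in 12 windows, 5 of them starts of *Egr2*. *Ier2* and *Egr1* had no window. The stretches printed here are the 120 bases before the start of *Atf3* (chr1:191183334-191183453, minus strand), *Nr4a1* (chr15:101266726-101266845, plus strand) and *Fos* (chr12:85473770-85473889, plus strand); *Atf3* and *Nr4a1* are the genes for which the set was chosen, and *Fos* belongs to the pair that varied most closely together. They are followed by 30 bases around a CArG box before a start of *Egr2* (chr10:67537787-67537816, plus strand). Capitals mark, on either strand, the short site TGACG of the cyclic AMP response element, the EGR site GCGNGGGCG and the TATA box TATAAA in the first 3 stretches, and the CArG box, which serum response factor binds, in the last.
Atf3: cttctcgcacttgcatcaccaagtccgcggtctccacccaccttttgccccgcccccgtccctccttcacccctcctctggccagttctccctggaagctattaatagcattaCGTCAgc
Nr4a1: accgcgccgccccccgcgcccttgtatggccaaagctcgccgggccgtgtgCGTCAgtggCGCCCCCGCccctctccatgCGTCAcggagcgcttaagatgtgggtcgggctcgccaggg
Fos: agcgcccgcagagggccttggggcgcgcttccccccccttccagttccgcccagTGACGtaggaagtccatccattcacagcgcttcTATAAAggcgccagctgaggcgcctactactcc
Egr2: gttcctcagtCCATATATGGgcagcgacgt

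The short site lay in 8 of the 12 member windows, of 6 genes, and in 20.8% of all 32851 windows, and was added to the search after the sequences had been seen. Those 8 windows include 3 overlapping windows of *Egr2* that hold the same sites. The full element TGACGTCA was in none of the 12 member windows and in 1.79% of all windows, and the AP-1 site TGANTCA was likewise in none and in 7.81%. The CArG box was found in 4 of the 5 windows of *Egr2*, 3 of which overlap and share the box printed above, and in 1.63% of all windows. The EGR site was in the windows of *Fosb* and *Nr4a1* and in 5.55% of all, and TATAAA in those of *Fos* and *Junb* and in 13.6% of all. The CCAAT box (ATTGG) was in windows of *Atf3*, *Egr2*, *Jun* and *Junb* and in 37.4% of all, and the GC box (GGGCGG), which can overlap the EGR site, in those of *Atf3*, *Egr2*, *Fos*, *Fosb*, *Jun* and *Nr4a1* and in 35.7% of all. Both strands were searched throughout, and a match describes letters in a window, not binding.

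*Olfm4* itself separated the genotypes as labelled, with 3.09, 3.00, 3.25 and 3.09 in knockout 1 to 4 against 10.32, 10.23, 10.74 and 10.65 in wild type 1 to 4 (log2 RMA values, the scale of all levels below). Array medians lay between 6.03 and 6.09, and arrays correlated at 0.983 to 0.996. The prostate luminal markers, secretory products and keratins among them, had list means of 13.34 to 13.93 in knockout and 13.86 to 13.89 in wild type (6 of 8 listed genes measured). The secretory product *Msmb* on that list was 11.09 in knockout 1. It was 14.14 to 14.35 in the other knockout and 14.09 to 14.22 in the wild-type prostates. The mean of 5 seminal vesicle secretory genes was 13.75 in knockout 1 and 14.15 in wild type 1, against 8.82 to 9.81 in the other knockout and 7.59 to 9.50 in the other wild-type prostates. Some values below are therefore also given without these 2 arrays. The mean of 5 skeletal muscle genes was 9.63 in knockout 3, against 7.32 to 7.82 in the other knockout and 7.60 to 8.14 in the wild-type prostates. Of these genes, *Myh4*, *Tnnt3* and *Mylpf* were highest in knockout 3 (8.17, 9.77 and 10.05). *Ckm* and *Acta1* were highest in knockout 1 (7.44 and 12.92), against 7.28 and 12.85 in knockout 3.

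*Atf3* was lower in all 4 knockout prostates. It measured 10.62, 10.94, 11.11 and 10.56 in knockout 1 to 4, against 11.29, 11.56, 11.41 and 11.33 in wild type 1 to 4. The highest knockout array was thus below the lowest wild-type array, and the means were 10.81 ± 0.26 in knockout and 11.40 ± 0.12 in wild type (SD, n = 4 each). The log2 difference, knockout minus wild type with array day as a second term of the fit, was -0.59 ± 0.14 (SE), or a knockout level 0.664 times that of wild type. It was -0.48 among day 1 arrays and -0.71 among day 2 arrays, and stayed between -0.72 and -0.50 when any 1 array was left out. In whole prostate, fewer cells that express a gene and less of its RNA per cell cannot be told apart.

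*Nr4a1* overlapped between the genotypes. Its values were 8.79, 9.13, 9.11 and 8.76 in knockout 1 to 4 and 9.86, 9.67, 8.99 and 9.34 in wild type 1 to 4. All knockout arrays were below the wild-type mean, but wild type 3 lay below knockout 2 and 3, and the means were 8.94 ± 0.20 in knockout and 9.47 ± 0.39 in wild type (SD, n = 4 each). The difference of -0.52 ± 0.20 (SE), a ratio of 0.696, was -0.67 on day 1 and -0.37 on day 2, and was -0.31 without knockout 1 and wild type 1, the arrays rich in seminal vesicle transcripts.

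*Jun*, the main partner of *Fos* in AP-1, had a pair of probe sets that differed in size of effect. Probe set 1417409_at gave 9.09, 9.54, 9.47 and 8.91 in knockout 1 to 4, against 9.79, 9.86, 9.79 and 9.80 in wild type 1 to 4, a difference of -0.56 ± 0.14 (SE). The groups did not overlap there, and the SD was 0.30 among knockout and 0.03 among wild-type arrays. The brighter probe set, 1448694_at, gave 11.67, 12.10, 11.78 and 11.40 in knockout against 11.98, 12.05, 11.78 and 11.81 in wild type, with overlapping groups and a difference of -0.17 ± 0.14 (SE), or -0.02 without knockout 1 and wild type 1. Both probe sets were lowest in knockout 4, and they correlated at 0.76 over the 8 arrays (n = 8, a description). Which of them follows the whole *Jun* transcript was not tested.

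**Figure D1:**
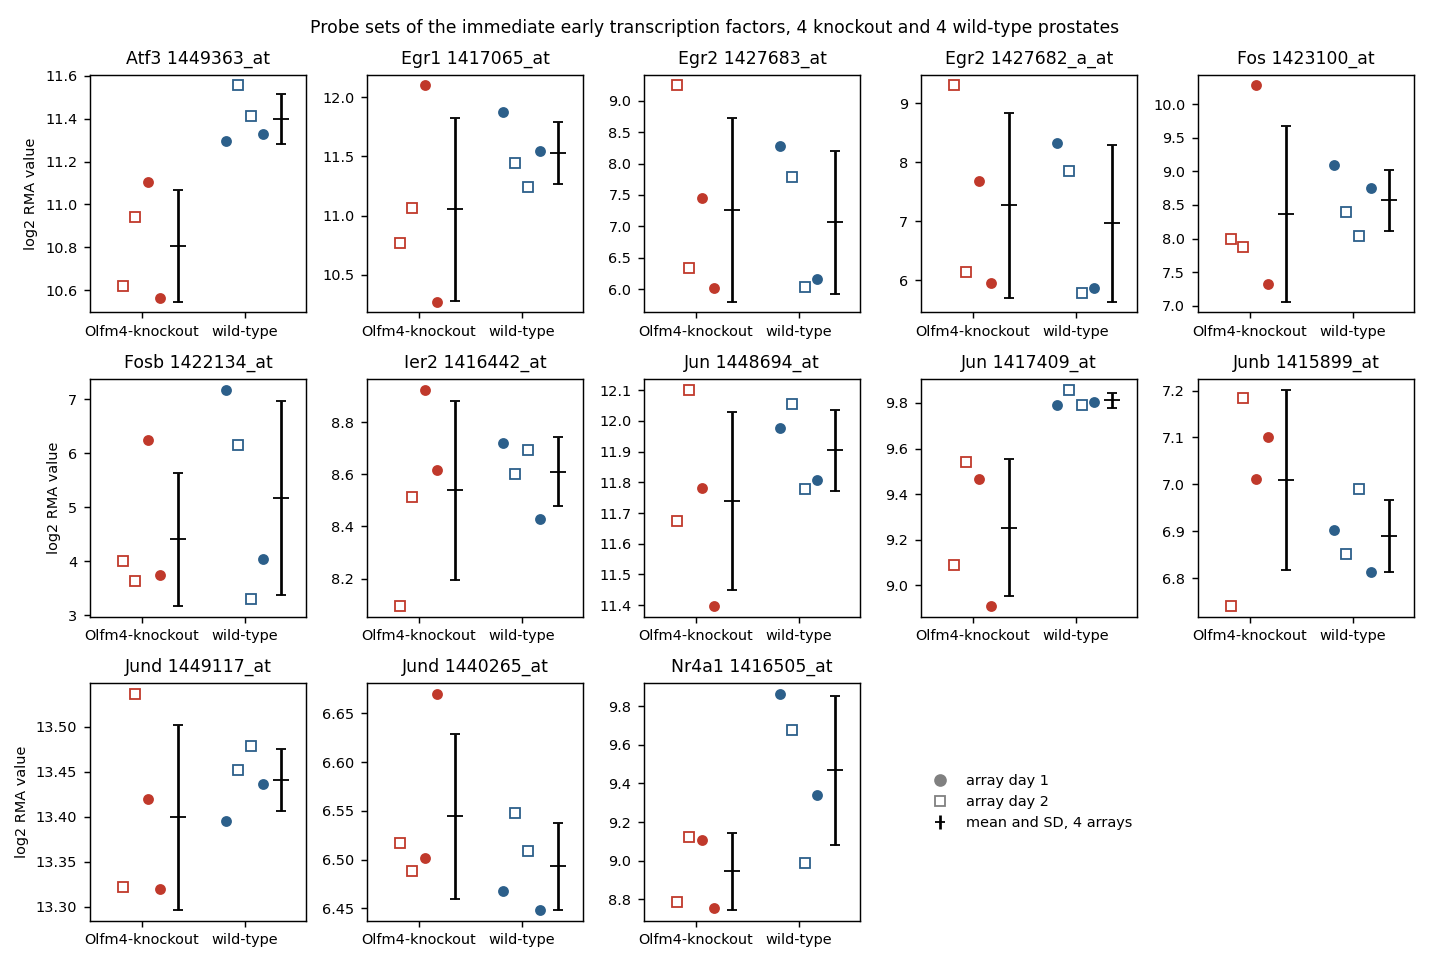
Log2 RMA value (vertical axis, scaled for each panel) of the 13 probe sets of the immediate early transcription factors in 4 *Olfm4*-knockout (red) and 4 wild-type (blue) prostates. Filled circles are arrays of day 1 and open squares those of day 2, and black bars give the mean and SD. Groups are apart for *Atf3* and for *Jun* 1417409_at, while *Fosb* and *Egr2* fall into high and low arrays of both genotypes.

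The other AP-1 members showed wide or very narrow spread. *Fos* measured 7.99, 7.88, 10.28 and 7.33 in knockout 1 to 4, against 9.10, 8.40, 8.04 and 8.75 in wild type 1 to 4. Knockout 3 was the highest of all 8 arrays and the other 3 knockout arrays were the lowest, so the mean difference was -0.20 ± 0.55 (SE). It became -0.81 without knockout 3 and 0.37 without knockout 4. *Fosb*, a close relative of *Fos*, gave 4.00, 3.64, 6.24 and 3.75 in knockout against 7.18, 6.15, 3.31 and 4.05 in wild type. Here 1 knockout and 2 wild-type arrays were high, and a gap of 2.10 parted them from the 5 others, whose values are near the lower end of what these arrays give. The *Fosb* difference of -0.76 ± 0.90 (SE) ran from -1.42 without wild type 4 to -0.17 without wild type 1 or wild type 2, and was -0.07 without knockout 1 and wild type 1.

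*Junb* and *Jund*, which can hold back *Jun* activity in many cells, stayed within narrow limits. *Junb* measured 6.74, 7.18, 7.01 and 7.10 in knockout against 6.90, 6.85, 6.99 and 6.81 in wild type (0.12 ± 0.11, SE, and 0.25 without knockout 1 and wild type 1). It was the only member gene apart from *Egr2* whose brightest probe set had a higher mean in knockout. *Jund*, at probe set 1449117_at, measured 13.32, 13.54, 13.42 and 13.32 in knockout against 13.40, 13.45, 13.48 and 13.44 in wild type, a difference of -0.04 ± 0.07 (SE). Its dimmer probe set 1440265_at lay between 6.49 and 6.67 in knockout and between 6.45 and 6.55 in wild type (0.05 ± 0.07, SE), and the pair correlated at -0.51 over 8 arrays. The range of *Jund* over all arrays was 0.22, against 3.87 for *Fosb*.

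*Egr1*, a zinc finger factor induced by serum and growth factors, had 10.77, 11.06, 12.10 and 10.27 in knockout 1 to 4, against 11.88, 11.45, 11.24 and 11.55 in wild type 1 to 4. As for *Fos*, knockout 3 was the highest and the other 3 knockout arrays were the lowest of all 8. The difference was -0.48 ± 0.35 (SE), -0.83 without knockout 3, -0.10 without knockout 4 and -0.32 without knockout 1 and wild type 1. *Egr2*, its relative with roles in nerve myelination and lymphocytes, measured 9.25, 6.33, 7.45 and 6.01 in knockout and 8.28, 7.79, 6.03 and 6.16 in wild type at probe set 1427683_at. Arrays were high in knockout 1 and 3 and wild type 1 and 2 and low in the other 4, and a second probe set, 1427682_a_at, followed the same arrays at 5.95 to 9.30 in knockout and 5.78 to 8.33 in wild type. The *Egr2* difference was 0.20 ± 0.82 (SE), and its sign turned without knockout 1 (-0.52), wild type 3 (-0.29) or wild type 4 (-0.09), and it was -0.0038 without both knockout 1 and wild type 1. *Ier2*, a small nuclear protein induced with this group, measured 8.10, 8.51, 8.93 and 8.62 in knockout against 8.72, 8.60, 8.69 and 8.43 in wild type (-0.07 ± 0.16, SE), and the sign turned to 0.07 without knockout 1 and to 0.11 without both knockout 1 and wild type 1.

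Over the members, 9 of 13 probe sets had a lower mean in knockout, with a median log2 difference of -0.17, and at the brightest probe set of each gene 8 of 10 were lower with a median of -0.18, or -0.05 without knockout 1 and wild type 1. The median over all 18193 genes was -0.01. None of the 13 passed an adjusted p under 0.05 by limma or by the methods' test without a day term, a threshold that 0.111% of all probe sets passed by limma. Nothing is read from this count or from the counts that follow, because the contrast chose the members. The lower counts that follow include *Atf3*, and the limma count also *Nr4a1*, the genes for which the set was chosen. At an unadjusted p under 0.05 limma found 3 of 13 lower and 0 higher, and the methods' test 2 lower, against 7.34% lower and 5.46% higher among all probe sets. Groups were apart with knockout below in 2 of 13, against 5.03% of all probe sets, and with knockout above in 0 of 13, against 3.69%.

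**Figure D2:**
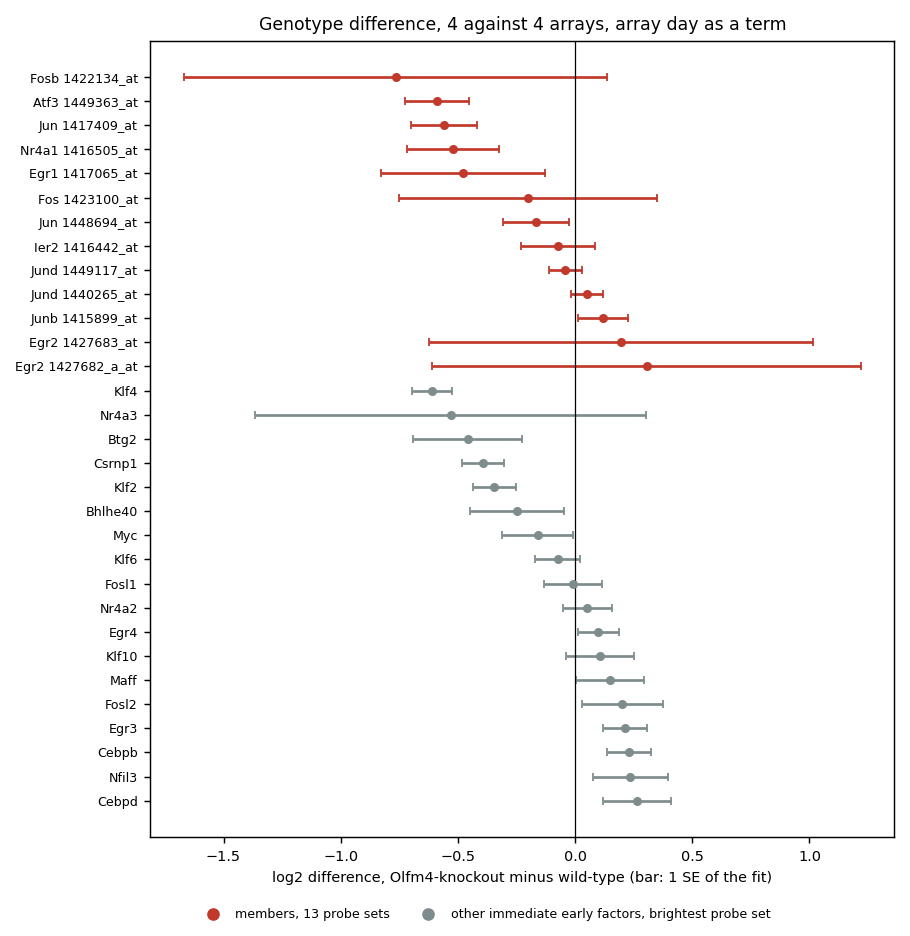
Log2 difference, *Olfm4*-knockout minus wild-type, with 1 SE of the limma fit (bars; 4 against 4 arrays, array day as a term). Red points are the 13 member probe sets and grey points the 18 other immediate early factors at their brightest probe set. *Atf3* at -0.59, *Jun* 1417409_at at -0.56 and *Klf4* at -0.61 have short bars, while those of *Fosb* and *Egr2* are the longest among the members.

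Array day was not used to choose the members and was tested. No member probe set passed the test of day 2 against day 1 (limma, Benjamini-Hochberg adjusted p 0.950 to 0.995, 4 against 4 arrays). At an unadjusted p under 0.05 there were 0 of 13 by limma, beside 4.62% of all probe sets, and 0% of all probe sets passed after adjustment. The largest day differences among the members were -1.03 ± 0.90 (SE) for *Fosb* and -0.79 ± 0.55 (SE) for *Fos*. Whether the genotype difference depended on the day was tested as an interaction in limma, which 0 of 13 passed after adjustment (adjusted p 0.890 to 0.993) or at an unadjusted p under 0.05. Of all probe sets, 0.00222%, or 1, passed it after adjustment and 4.9% at an unadjusted p under 0.05. *Ier2* differed by 0.20 on day 1 and by -0.34 on day 2 (knockout minus wild type), with an interaction of -0.54 ± 0.26 (SE, adjusted p = 0.890 by limma).

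**Figure D3:**
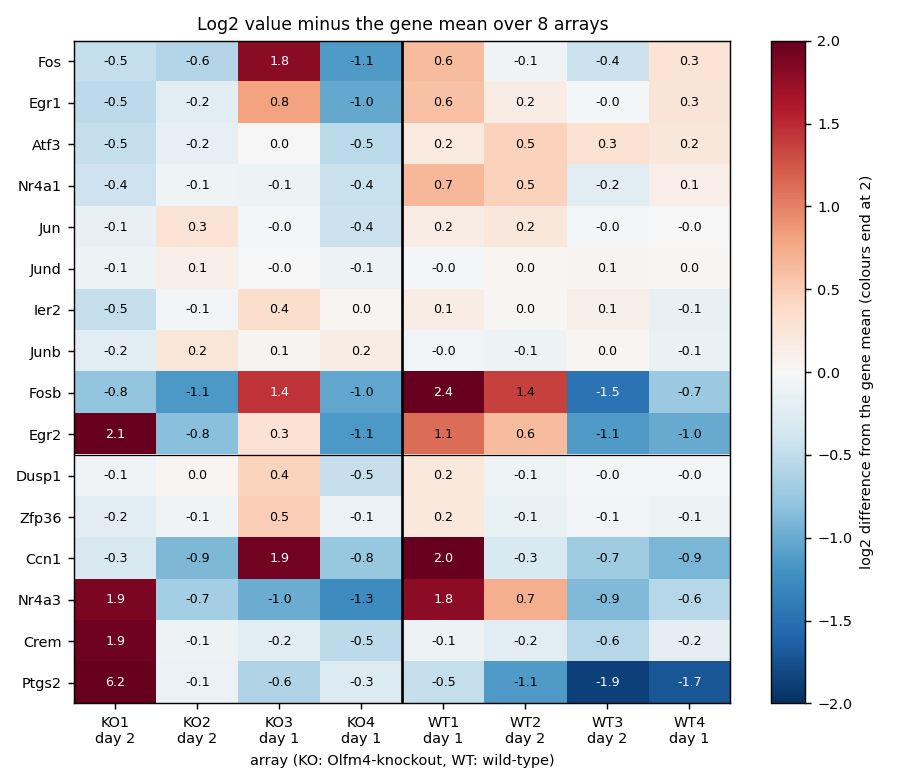
Log2 value of each gene minus its mean over the 8 arrays (brightest probe set; colours end at 2). Columns are arrays, the 4 *Olfm4*-knockout arrays (KO) left of the 4 wild-type arrays (WT), with the 10 members above the line and 6 related genes, picked after their values were seen, below it. *Fos* and *Egr1* are highest in KO3 and lowest in KO4, *Egr2* and *Nr4a3* are high in KO1, WT1 and WT2, and *Ptgs2* stands out in KO1.

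Variation between prostates of 1 genotype was shared by some members. *Fos* and *Egr1* had the closest pattern, with Pearson r = 0.92 and Spearman rho = 0.98 over 8 arrays, r = 0.91 without the 2 arrays farthest from the *Fos* median, 0.95 without knockout 3 and 0.97 once genotype and day means were removed. Both were lowest in knockout 4 and highest in knockout 3 and, next, in wild type 1. These points share the tissue, the platform and the RNA of each array, so the correlations are a description without a p-value. Of 28 pairs among the 8 members other than *Fosb* and *Egr2*, 23 were above 0 and 5 above 0.7, with a mean r of 0.37 and a mean rho of 0.32, and a mean r of 0.49 after genotype and day means were removed. The mean r was 0.20 without knockout 1.

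The remaining 4 pairs above 0.7 were *Jun* with *Jund* (r = 0.77, rho = 0.69), *Atf3* with *Nr4a1* (r = 0.74, rho = 0.64), *Jun* with *Nr4a1* (r = 0.71, rho = 0.83) and *Egr1* with *Atf3* (r = 0.70, rho = 0.55). The r values of *Jund* are limited by its range of 0.22, and its probe sets correlated with each other at -0.51. Without the 2 arrays farthest from the median of the first gene, r was 0.93 for *Jun* with *Nr4a1* and 0.74 for *Egr1* with *Atf3*, but 0.41 for *Jun* with *Jund* and 0.43 for *Atf3* with *Nr4a1*, so the last 2 pairs rested on those arrays. *Atf3* with *Nr4a1* was also 0.44 once genotype and day means were removed. As measured, *Junb* had r of -0.27 with *Nr4a1*, -0.24 with *Atf3*, -0.21 with *Egr1*, -0.19 with *Fos*, 0.39 with *Jund* and 0.51 with *Ier2*. Once genotype and day means were removed, these were 0.04, 0.30, -0.06, -0.20, 0.69 and 0.68 in the same order, so the sign with *Nr4a1* and *Atf3* turned. Without knockout 1 and wild type 1 they were -0.70, -0.76, -0.48, -0.34, 0.08 and 0.18. *Fosb* and *Egr2* were given no r, since their arrays fall into separate high and low clusters. Wild type 1, wild type 2 and knockout 3 were high for both genes, and knockout 1 was high for *Egr2* and low for *Fosb*.

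**Figure D4:**
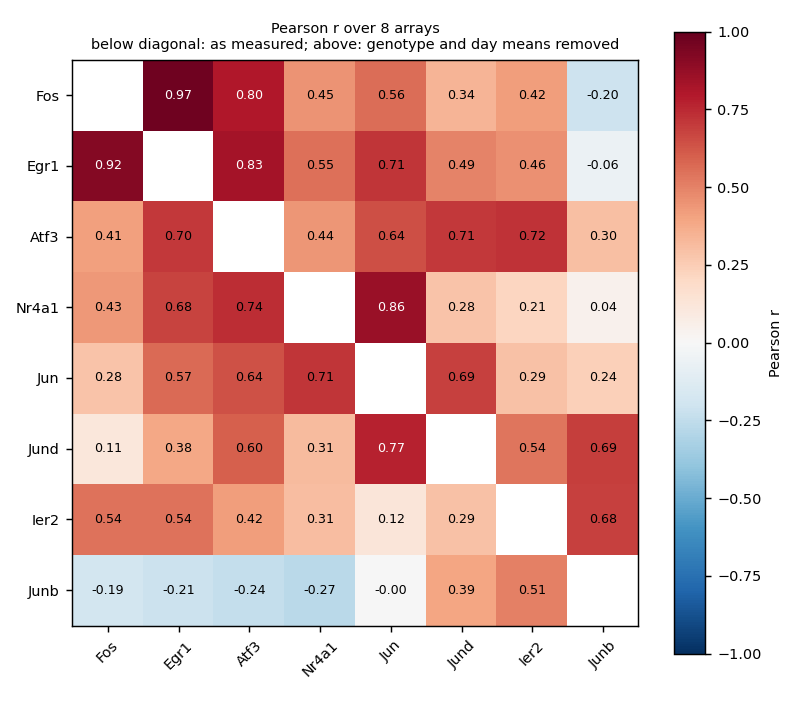
Pearson r between 8 members over 8 arrays at the brightest probe set of each gene. Values below the diagonal are as measured and those above it follow removal of genotype and day means. *Fos* with *Egr1* reaches 0.92 below and 0.97 above the diagonal, and the *Junb* row below the diagonal holds the negative values.

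The mean of the 10 members, each centred on its own mean, was -0.15, -0.25, 0.46 and -0.57 in knockout 1 to 4, against 0.58, 0.32, -0.28 and -0.11 in wild type 1 to 4. Knockout 3 and wild type 1 and 2 were high, and the genotypes overlapped. The values were not scaled, so *Fosb* and *Egr2* weigh most in this mean (SD over 8 arrays 1.48 and 1.22). Both genes were high in those same arrays. Knockout 3, which had the highest skeletal muscle list mean through *Myh4*, *Tnnt3* and *Mylpf*, was also highest for *Fos*, *Egr1* and *Ier2*. The arrays highest in leukocyte markers, wild type 2 at 8.01 and wild type 1 at 7.85, were highest for *Nr4a1*. Leukocyte list means were 7.24 to 7.64 in the knockout and 7.43 to 8.01 in the wild-type prostates, and 5 of its 6 genes had a lower mean in knockout, 0 passed the adjusted threshold and 1 an unadjusted p under 0.05. In the basal epithelial list 5 of 5 genes had a higher mean in knockout (median 0.21, 0 past the adjusted threshold and 1 unadjusted), as had 6 of 6 in the fibroblast list (median 0.24, 0 adjusted and 0 unadjusted). Of all genes 0.17% passed the adjusted threshold, and 8.49% were lower and 6.27% higher at an unadjusted p under 0.05. Stress chaperone means lay at 11.91 to 12.10 in knockout and 11.84 to 12.00 in wild type. The part of these cell types in the members' values was not tested.

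**Figure D5:**
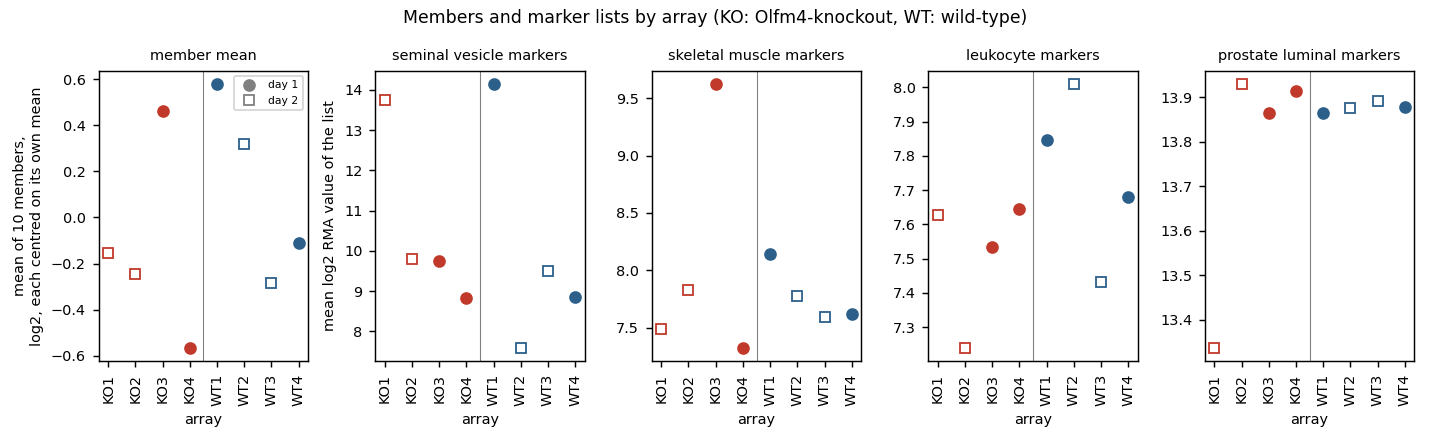
Mean of the 10 members (left panel, log2, each centred on its own mean) and mean log2 RMA value of 4 marker lists, by array, *Olfm4*-knockout in red left of wild-type in blue. Filled circles are day 1 arrays and open squares day 2 arrays. Knockout 3 is high for members and for skeletal muscle markers (9.63), and knockout 1 and wild type 1 are high for seminal vesicle markers (13.75 and 14.15).

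Among 12323 other genes with a mean log2 value of 6 or more, those closest to the members' mean over the 8 arrays were *Zmynd15* (r = 0.94, rho = 0.98), *Ift46* (r = 0.93), *Ebf3* (r = 0.91), *Psca* (r = 0.90), *Mal* (r = 0.90), *Ryr1* (r = 0.89), *Xpc* (r = 0.89), *Gnat2* (r = 0.88), *Myl4* (r = 0.88) and *Cxcr4* (r = 0.88). *Ryr1*, the calcium release channel of skeletal muscle, ranged from 6.37 to 8.37, and *Psca*, a surface antigen of prostate and urothelium, from 8.48 to 10.28. The other 8 each spanned under 1 log2 unit. Without the 2 arrays farthest from the median of the members' mean, r was 0.91 for *Ift46* and *Ebf3*, 0.93 for *Psca*, 0.90 for *Ryr1* and 0.66 for *Cxcr4*. With 8 arrays and 12323 genes, some high r arise by chance, so the ranking is a description and was not tested. The members' mean behind it is weighted to *Fosb* and *Egr2*.

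Other immediate early transcription factors gave a mixed picture. Of 18 genes, all measured, 0 passed an adjusted p under 0.05, beside 0.17% of all genes, while 3 were lower and 1 higher at an unadjusted p under 0.05, beside 8.49% lower and 6.27% higher of all genes, and the median difference was 0.02. *Klf4*, a zinc finger factor of epithelial differentiation, measured 10.13, 10.08, 10.15 and 10.05 in knockout 1 to 4, against 10.89, 10.60, 10.77 and 10.59 in wild type 1 to 4. The groups were apart, as they were with knockout below in 5.03% of all probe sets. The difference was -0.61 ± 0.09 (SE, limma adjusted p = 0.0773, range 0.0358 to 0.839 over the alternatives), although a second, dimmer *Klf4* probe set gave 0.04. *Csrnp1* (-0.39 ± 0.09, SE, adjusted p = 0.209), *Klf2* (-0.34 ± 0.09, SE, adjusted p = 0.251) and *Cebpb* (0.23 ± 0.09, SE, adjusted p = 0.364) had larger adjusted values in limma, and a second *Csrnp1* probe set differed by 0.03. A direct comparison of these 18 genes with the members was not made, since the members were chosen for their difference.

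Some genes outside the members, named after their values were seen, followed single arrays. *Dusp1*, a phosphatase that switches off MAP kinases, measured 11.66, 11.77, 12.17 and 11.26 in knockout 1 to 4, against 11.93, 11.64, 11.69 and 11.68 in wild type 1 to 4, and *Zfp36*, which promotes decay of short-lived mRNA, measured 8.07, 8.24, 8.79 and 8.18 in knockout against 8.52, 8.17, 8.24 and 8.19 in wild type. Both were highest in knockout 3, and then in wild type 1, as *Fos* was, with r of 0.89 and 0.87 with *Fos* (rho 0.64 and 0.60), and r of 0.54 and 0.69 without the 2 arrays farthest from the *Fos* median. *Ccn1*, a matrix protein of the early response, was 9.40 in knockout 3 and 9.47 in wild type 1, against 6.57 to 7.16 in the other knockout and 6.55 to 7.17 in the other wild-type prostates. *Nr4a3*, the relative of *Nr4a1*, shared the arrays of *Egr2* in part, with 11.65, 9.09, 8.77 and 8.50 in knockout and 11.56, 10.50, 8.88 and 9.19 in wild type.

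Immediate early effectors, the products that act outside transcription, had 32 of 33 listed genes measured. None passed the adjusted threshold, 1 was lower and 0 higher at an unadjusted p under 0.05, and the median difference was 0.01. Among all genes, 0.17% passed the adjusted threshold, and 8.49% were lower and 6.27% higher unadjusted. The same shares apply to the lists that follow. The smallest p were those of *Trib1* (-0.19 ± 0.08, SE, adjusted p = 0.365 by limma), *Ier3* (-0.32 ± 0.14, SE, adjusted p = 0.392), both with all knockout arrays below all wild-type arrays, and *Tnfaip3* (0.21 ± 0.10, SE, adjusted p = 0.425), and a second *Trib1* probe set differed by 0.49. All knockout arrays were below all wild-type arrays in 5.03% of all probe sets. The *Ier3* difference was -0.17 without knockout 1. AP-1 partners, the factors that can join Fos family or Jun family proteins in a dimer, had 9 of 10 measured, 0 past the adjusted threshold, 2 lower and 1 higher unadjusted, and a median of -0.06. Among them *Maf* measured 10.48, 10.53, 10.25 and 10.61 in knockout against 10.18, 10.05, 10.09 and 10.04 in wild type (0.37 ± 0.09, SE, adjusted p = 0.228 by limma), while *Batf3* gave -0.41 ± 0.12 (SE, adjusted p = 0.282) and *Mafg* -0.22 ± 0.09 (SE, adjusted p = 0.380). The 5 other probe sets of *Maf* differed by -0.21 to 0.14.

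Upstream regulators, the kinases and serum response or CREB factors that act on immediate early promoters, had 20 of 24 measured, 0 past the adjusted threshold, 2 lower and 2 higher unadjusted, and a median of 0.01. *Srf*, serum response factor, lay at 10.24 to 10.64 in knockout and 10.28 to 10.40 in wild type. The smallest p were those of *Rps6ka3* (0.21 ± 0.07, SE, adjusted p = 0.302 by limma), *Map2k2* (-0.15 ± 0.06, SE, adjusted p = 0.349), *Mef2a* (0.15 ± 0.06, SE, adjusted p = 0.360) and *Mapk9* (-0.16 ± 0.07, SE, adjusted p = 0.373). The other probe sets of *Rps6ka3* differed by -0.19 and 0.20, those of *Map2k2* and *Mapk9* were lower in mean as well, and the 5 of *Mef2a* ran from -0.08 to 0.28.

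Stress chaperones had 11 of 12 measured, 0 past the adjusted threshold, 0 lower and 2 higher unadjusted, and a median of -0.02. The higher genes were *Hspa1b* (0.37 ± 0.11, SE, adjusted p = 0.277 by limma) and *Hspa1a* (0.54 ± 0.20, SE, adjusted p = 0.344), near-identical copies of the inducible Hsp70 gene whose probe sets can share RNA. The *Hspa1a* difference was 0.11 on day 1 and 0.98 on day 2 (interaction adjusted p = 0.890 by limma). *Hspb1*, next in p, gave -0.13 ± 0.07 (SE, adjusted p = 0.492 by limma). In the integrated stress response list 7 of 7 genes were measured, with 0 past the adjusted threshold and 0 at an unadjusted p under 0.05 in either direction, and *Atf4*, which can induce *Atf3*, had a difference of 0.15 ± 0.08 (SE, adjusted p = 0.489 by limma). The 2 other probe sets of *Atf4* differed by 0.07 and 0.63. *Chac1* gave 0.40 ± 0.18 (SE, adjusted p = 0.404) and *Sesn2* 0.23 ± 0.13 (SE, adjusted p = 0.528). AP-1 targets, proteases and their inhibitors among them, had 9 of 10 measured, 0 past the adjusted threshold and 0 unadjusted. Their smallest p belonged to *Plau* (0.26 ± 0.19, SE, adjusted p = 0.608 by limma), *Mmp9* (0.32 ± 0.29, SE, adjusted p = 0.685) and *Timp1* (0.31 ± 0.32, SE, adjusted p = 0.736). Without knockout 1 these differences were 0.10 for *Plau*, 0.0027 for *Mmp9* and 0.02 for *Timp1*.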

How the data were processed

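The deposited values are log2 signals that the authors made with the RMA algorithm (RMA version: not given in the sources used here). Labels name Trizol and the methods an RNeasy kit for RNA extraction, and the methods give more mice per genotype than the 4 arrays of each analysed here. Probe sets were named through the platform annotation: of 45037 tested (64 controls left out), 34945 had 1 symbol, 932 several and 9160 none, and 18145 of 18193 genes matched RefSeq.

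The genotype fit used limma 3.58.1 under R 4.3.3, 2-sided. Its terms were genotype and array day, and p was adjusted (Benjamini-Hochberg) across the 45037 probe sets. The methods name ANOVA, which was run without a day term as an alternative and is called the methods' test. Other alternatives changed the normalization, filter, variance model, replicate block, probe sets and arrays. A gene is its brightest probe set. On simulated arrays with 200 changed probe sets the genotype fit recovered 28% of changes of 0.5 on the log2 scale and 82% of changes of 1, with 3.18% false calls. Arrays limit precision by their number, and p-values measure the spread between these mice. Members and gene lists were chosen with earlier results of these data known. The rule for named genes took all members, *Olfm4*, up to 3 genes of smallest p per other list and the 10 genes closest to the members' mean. Outside it, *Cebpb*, *Mapk9*, *Srf*, *Dusp1*, *Zfp36*, *Ccn1*, *Nr4a3*, *Crem* and *Ptgs2* were named after their values were seen.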

Additional observations from a re-analysis of the deposited data

Results flagged for a closer look

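In 104 groups of 4 arrays examined (members and named genes, either genotype), 5 held an array far from the others, and chance flags about 1 in 20. Nothing is read from the count, since some genes, *Ptgs2* among them, were named after their values were seen. *Fosb* was 6.24 in knockout 3, against 3.64 to 4.00 in the other knockout prostates. *Jund*, at its dimmer probe set 1440265_at, was 6.67 in knockout 4, against 6.49 to 6.52 in the others. *Batf3* was 7.93 in wild type 1 and 8.38 to 8.46 in the other wild-type prostates. *Mafg* was 8.71 in wild type 2 and 8.57 to 8.59 in the others. *Ptgs2*, the inducible cyclooxygenase, was 11.99 in knockout 1, against 5.21 to 5.70 in the other knockout and 3.95 to 5.35 in the wild-type prostates.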

How the results depend on the processing

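None of the 13 member probe sets passed the adjusted threshold under any alternative run. The count over all probe sets, 50, was 24 by ANOVA without array day, 4 within day 1, 4 within day 2, 20 with a replicate block and 17 to 43 when 1 array was left out. It was 73 with an intensity trend and robust variance, 71 in limma without array day, 62 with array weights, 54 at a mean log2 value of 5 or more and 51 after quantile normalization. Counted as genes, 24 passed when all probe sets of a gene were averaged, against 31 of 18193 at the brightest probe set. The count by array day, 0, was 0 to 1 when 1 array was left out. Deviations of same-numbered prostates correlated at r 0.34, 0.17, 0.04 and -0.01, and only number 1 was closest to its own number. Prostates of number 1 were also those rich in seminal vesicle transcripts. The titles name no pairing and the main fit used none, but these r cannot settle whether mice were paired. The members' median of -0.18 kept its sign in all settings (-0.39 to -0.06 with 1 array left out, and -0.05 without knockout 1 and wild type 1, left out after the data were seen). *Klf4* passed in 2 of 19 settings, with an intensity trend (adjusted p = 0.0380 by limma) and without array day (adjusted p = 0.0358), and the other 22 listed genes tried passed in none. Over the settings *Fos* ran from -0.81 to 0.37, *Egr2* from -0.52 to 0.88, *Ier2* from -0.34 to 0.20, *Atf3* from -0.72 to -0.48 and *Nr4a1* from -0.69 to -0.31. Levels near background, as for *Fosb* in 5 arrays, limit its difference.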
